A study of Mus musculus with 6 samples.

Results

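A set of 10 genes of the Hippo pathway and of the transcriptional programme it controls is described here in neonatal mouse cardiomyocytes (CMs) treated with α-ketoglutarate (αKG), a Krebs cycle intermediate and cosubstrate of many dioxygenases. The genes were chosen by name, with earlier results of these data known, and all 10 were found among the 20066 genes of the deposited RNA-sequencing table. They are the coactivators *Yap1* and *Wwtr1* (TAZ), the DNA-binding factor *Tead1*, the kinases *Lats1* and *Lats2* and the scaffold *Sav1*. The others are the YAP inhibitor *Amotl2*, the LATS inhibitor *Ajuba*, and the targets *Ctgf* and *Cyr61*, which the table lists as *Ccn2* and *Ccn1*. Both groups were C57BL/6 CMs from hearts of P0-1 pups, grown on fibronectin. The control group received the solvent dimethylsulfoxide (DMSO, n = 3 libraries) and the other group cell-permeable αKG at 100 µM per the labels (n = 3), each for 96 h; the study's methods name the octyl ester at a higher concentration. The comparison asks how raised αKG changes RNA levels in CMs, in a study of whether αKG affects their maturation and proliferation. No sorting of the cells is named, and the study describes each sample of neonatal CMs as 1 isolation from pooled hearts, without saying so for these libraries, so p-values measure the spread between these 6 libraries.

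The Hippo pathway is a kinase cascade that restrains organ growth. MST kinases (encoded by *Stk3* and *Stk4*) with SAV1 activate the LATS kinases, which phosphorylate YAP and TAZ and keep them in the cytoplasm. When the cascade is low, YAP and TAZ enter the nucleus, bind TEAD factors and switch on genes such as *Ctgf*, *Cyr61* and *Ankrd1*. In the heart the pathway is best known for limiting CM proliferation around birth. YAP is controlled mainly by phosphorylation, which RNA sequencing does not measure.

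The libraries held an estimated 3725428 to 4429134 reads in genes, and each of the 10 genes had between 116 and 2287 estimated reads in every library, so that counting error alone was 2.23% for *Tead1* and 9.10% for *Ajuba*. αKG replicate 3 stood apart from its group. Its log2 values correlated across genes at 0.9616 and 0.9632 with αKG replicates 1 and 2, and at 0.9774 to 0.9802 with the DMSO libraries. It was thus nearer to the controls than to its own group, and whether it carries the right label was not tested. It was kept as labelled in every group mean and call, and the calls that change without it are given beside the values. DMSO replicates 2 and 3 differed by close to counting error across genes (chi-square of 1.016 per gene over 13077 genes, against 1.426 and 1.931 for the other DMSO pairs), but 19 of 20 cell cycle genes were higher in replicate 2, so they were counted as separate samples. All 8 CM markers were present, with summed normalized read counts of 74797 to 77538 in DMSO and of 107732, 111018 and 79395 in αKG replicates 1 to 3. Most of each sum was *Ttn*.

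Of the YAP targets, *Ctgf* and *Ankrd1* rose with αKG, by amounts that differed between the αKG libraries. *Ctgf* (ENSMUSG00000019997, chr10:24595442-24598683, plus strand, GRCm38), which encodes a secreted matricellular protein and is a classical YAP target, had normalized read counts of 675, 706 and 696 in DMSO replicates 1 to 3 and of 1150, 1184 and 805 in αKG replicates 1 to 3. Every αKG library lay above every DMSO library, and replicate 3 was much nearer to the controls than the other two. The mean was 692.3 ± 15.8 (SD, n = 3) in DMSO and 1046 ± 210 (SD, n = 3) in αKG, a log2 fold change (the log2 difference of the groups) of 0.57 ± 0.13 (SE) on the log2(value + 1) scale, or 1.49-fold with a 95% interval of 1.22 to 1.82. *Ctgf* was the only one of the 10 genes that passed an adjusted p of 0.05 (limma, Benjamini-Hochberg adjusted p = 0.0454). The call was lost when any DMSO library or αKG replicate 1 or 2 was left out (adjusted p of 0.186 to 0.278 by limma), and its direction was not. Of all 20066 genes 3.78% passed in either direction, 2.83% as higher and 0.952% as lower in αKG.

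**Figure D1:**
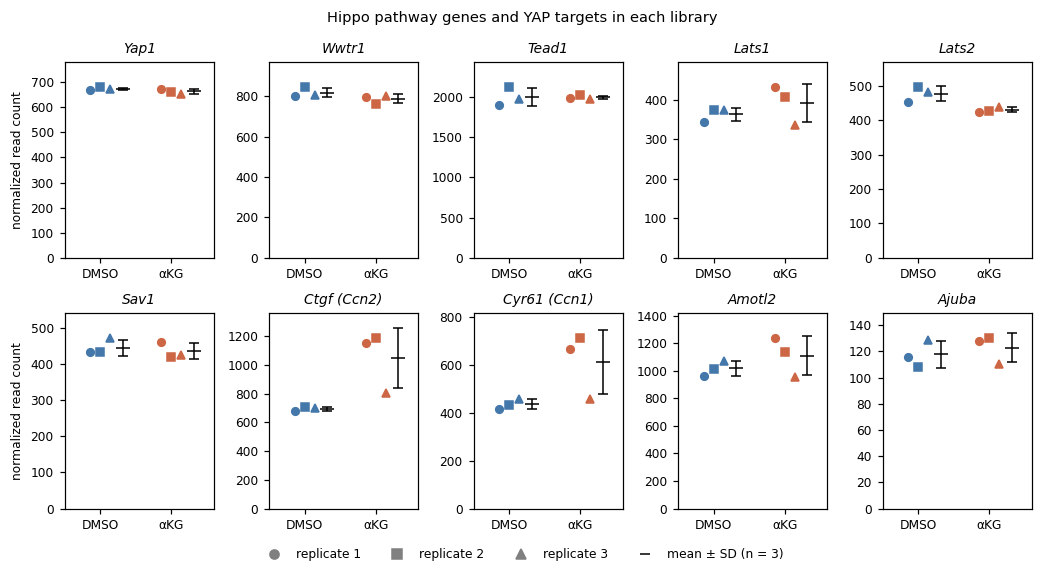
Normalized read count (y axis, from 0) of each of the 10 genes in the 3 DMSO (blue) and 3 αKG (orange) libraries, with marker shapes for the replicate numbers and the mean ± SD beside them. *Ctgf* and *Cyr61* are higher in αKG replicates 1 and 2 than in any DMSO library, with αKG replicate 3 at 805 and 457, while *Yap1*, *Wwtr1* and *Tead1* lie at nearly the same level in all 6 libraries.

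*Cyr61* (ENSMUSG00000028195, chr3:145646976-145649981, minus strand), which encodes a second matricellular protein of the same family, had 416, 430 and 457 normalized read counts in DMSO and 666, 710 and 457 in αKG. αKG replicates 1 and 2 lay above all controls, and αKG replicate 3 had the same value as the highest control. The log2 fold change was 0.47 ± 0.15 (SE, 95% interval 0.14 to 0.80) and did not pass the test (adjusted p = 0.0891 by limma). *Amotl2* (ENSMUSG00000032531, chr9:102716672-102733418, plus strand), an angiomotin family member that binds and inhibits YAP and is itself a YAP target, had 964, 1015 and 1073 in DMSO and 1236, 1133 and 957 in αKG, so that αKG replicate 3 was the lowest of the 6 libraries. Its log2 fold change was 0.12 ± 0.09 (SE, adjusted p = 0.432 by limma).

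The bases before the start of 3 targets are shown because TEAD factors bind the hexamer GGAATG, read CATTCC on the other strand. The windows are the 250 bases before the RefSeq transcription start (GRCm38.p6), given 5′ to 3′ on the strand of the gene, with the hexamer in capitals. *Ankrd1* was chosen as the other target that passed the test. They are chr3:145649986-145650235 (minus strand) for *Cyr61*, chr9:102717554-102717803 (plus strand) for *Amotl2* and chr19:36119845-36120094 (minus strand) for *Ankrd1*.
Cyr61: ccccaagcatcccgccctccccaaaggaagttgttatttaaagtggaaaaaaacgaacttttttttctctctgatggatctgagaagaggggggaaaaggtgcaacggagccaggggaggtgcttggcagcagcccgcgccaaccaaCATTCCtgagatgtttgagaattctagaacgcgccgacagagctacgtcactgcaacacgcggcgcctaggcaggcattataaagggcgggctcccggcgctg
Amotl2: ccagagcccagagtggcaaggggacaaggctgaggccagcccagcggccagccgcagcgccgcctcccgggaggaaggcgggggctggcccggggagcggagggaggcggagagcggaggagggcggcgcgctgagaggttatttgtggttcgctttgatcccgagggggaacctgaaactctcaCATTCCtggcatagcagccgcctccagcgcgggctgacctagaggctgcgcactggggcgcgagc
Ankrd1: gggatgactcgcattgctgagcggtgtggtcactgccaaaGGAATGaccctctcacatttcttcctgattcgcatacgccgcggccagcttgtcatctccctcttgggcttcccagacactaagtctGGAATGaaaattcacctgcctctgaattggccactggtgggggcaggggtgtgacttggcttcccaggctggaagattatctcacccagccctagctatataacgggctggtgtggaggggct

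In these windows the first base of the hexamer lay 103 bases before the RefSeq start of *Cyr61*, 65 before that of *Amotl2*, and 210 and 123 before that of *Ankrd1*. The windows of *Amotl2* and *Ankrd1* lie inside the annotated span of the gene, since the RefSeq start used is downstream of the first base of that span. A window was matched for 8 of the 10 genes, all but *Tead1* and *Ctgf*, and 6 of the 8 held the hexamer on either strand. The others were *Yap1* (141 bases before the start), *Wwtr1* (136, or 170 for the same match counted from another annotated start), *Sav1* (106) and *Ajuba* (186 and 164), and none was found for *Lats1* and *Lats2*. Of all 32851 windows of this length, 12.6% held it, as did those of 14.4% of 27025 genes. Among 22 genes of a wider YAP/TAZ target list described next, 15 had a window and 6 of these held the hexamer. A match of 6 letters describes the sequence and not a bound site.

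The wider YAP/TAZ target signature, a list of 22 targets known from the literature, had 21 genes in the table. Of these, 2 passed the test, *Ctgf* and *Ankrd1*, both higher in αKG, where 2.83% of all genes passed as higher. *Ankrd1*, which encodes a titin-associated protein of the sarcomere that responds to strain, had 1314, 1341 and 1340 in DMSO and 1651, 1710 and 1551 in αKG. All 3 αKG libraries were well above the controls, and the log2 fold change was 0.30 ± 0.06 (SE, adjusted p = 0.0354 by limma), or 1.23-fold. This call too was lost without any DMSO library or αKG replicate 1 or 2 (adjusted p of 0.139 to 0.255 by limma).

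Several other targets had larger fold changes that did not pass the test, and in these αKG replicate 3 was near the controls while the other αKG libraries were not. *Tgfb2*, a ligand of the TGFβ family, had 497, 521 and 506 in DMSO and 953, 915 and 569 in αKG (log2 difference 0.64 ± 0.17, adjusted p = 0.0609 by limma). *Axl*, a receptor tyrosine kinase, had 208, 239 and 217 in DMSO and 503, 472 and 211 in αKG (0.74 ± 0.27, adjusted p = 0.125 by limma). The pattern was the same in *Nt5e*, the ecto-5′-nucleotidase CD73, and in *Igfbp3*, a binding protein for insulin-like growth factors, both named after their values were seen. *Nt5e* had a log2 fold change of 0.87 ± 0.23 (adjusted p = 0.062 by limma) and *Igfbp3* of 1.00 ± 0.39 (adjusted p = 0.135 by limma). All of these passed without αKG replicate 3, with log2 fold changes of 0.88 for *Tgfb2*, 1.14 for *Axl*, 1.21 for *Nt5e* and 1.54 for *Igfbp3* (adjusted p of at most 0.00123 by limma).

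Over the 21 genes, 16 had a positive log2 fold change, and the median was 0.17, against 0.04 over all genes and -0.07 over 10183 genes whose mean reached 50. The median over the 17 genes that are not among the 10 was also 0.17. At an unadjusted p under 0.05, 10 of the 21 passed, 9 higher and 1 lower, where 28.1% of all genes did. The 1 lower gene was *Arhgef17*, a RhoA activator, named after its values were seen (log2 fold change -0.21 ± 0.06, adjusted p = 0.0867 by limma, and 0.0357 without αKG replicate 3).

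The αKG libraries differed in the signature. Relative to the DMSO mean, the median log2 difference of the 21 genes was 0.31 in αKG replicate 1, 0.42 in replicate 2 and 0.03 in replicate 3. In the same order, 16, 17 and 7 of the 21 genes lay above all 3 DMSO libraries, as did 8089, 7849 and 5485 of all 20066 genes. Without αKG replicate 3, 14 of the 21 passed as higher and 1 as lower (limma), beside 37.2% of all genes in that fit, and of the 10 genes *Lats1*, *Ctgf*, *Cyr61* and *Amotl2* passed, all higher. *Ctgf* then had a log2 fold change of 0.75 (adjusted p = 0.000309 by limma), *Cyr61* of 0.66 (adjusted p = 0.000999 by limma) and *Amotl2* of 0.22 (adjusted p = 0.0326 by limma). That fit holds 2 αKG libraries, which lie close together.

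**Figure D2:**
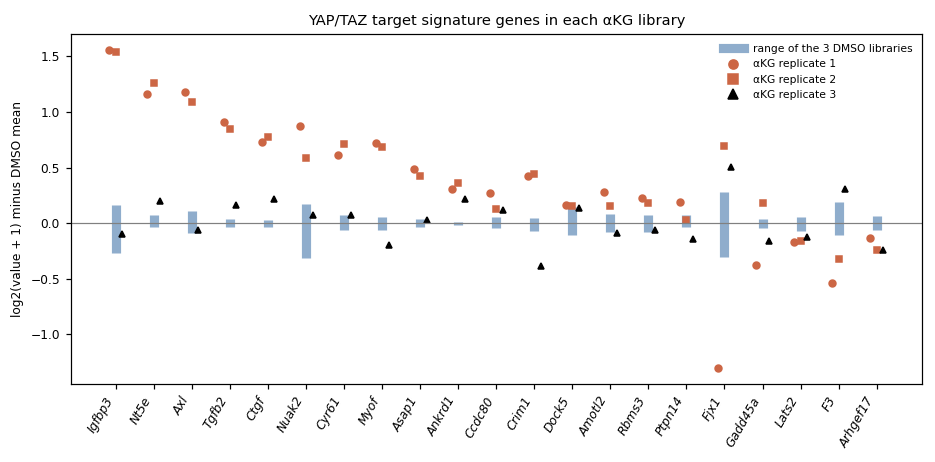
Difference of each αKG library from the DMSO mean on the log2(value + 1) scale (y axis) for the 21 target signature genes in the table, ordered by log2 fold change, with blue bars for the range of the 3 DMSO libraries. αKG replicates 1 (circles) and 2 (squares) lie above the bar in 16 and 17 genes and αKG replicate 3 (black triangles) in 7.

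The summed fibroblast, epicardial and mural cell markers were also highest in αKG replicates 1 and 2, though not every marker was. Log2 fold changes were positive for 7 of 8 fibroblast, 7 of 7 epicardial and 5 of 7 mural markers. In αKG replicate 1, *Col1a1* (2402) and *Cspg4* (1576) were the largest parts of the fibroblast and mural sums. The fibroblast marker *Tcf21* had 56, 65 and 63 in DMSO and 58, 62 and 39 in αKG. The mural marker *Acta2* was highest in αKG replicate 3 (1131). The summed normalized read counts of all 8 fibroblast markers were 2595 to 2755 in DMSO and 5798, 5666 and 2656 in αKG replicates 1 to 3, and those of all 7 epicardial markers 138 to 153 in DMSO and 712, 692 and 86 in αKG. None of these genes passed the test (limma, with 4 fibroblast and 1 epicardial markers at an unadjusted p under 0.05), but without αKG replicate 3, in the fit in which 14 of the 21 targets passed as higher, 6 of the 8 fibroblast and 7 of the 7 epicardial markers also passed as higher. The epicardial marker *Muc16* was at 0 in αKG replicate 3. Of 7 mural cell markers, summing to 2074 to 2176 in DMSO and 3022, 2659 and 2431 in αKG, 1 passed as higher (*Cspg4*), and *Kcnj8* was at 0 in a library. Of 8 endothelial markers, 6 passed as lower, beside 0.952% of all genes. The sum of all 8 was 2146 to 2261 in DMSO and 1629, 1519 and 1497 in αKG. The other 2, *Tek* and *Flt1*, had log2 fold changes of 0.38 and 0.27 (adjusted p = 0.351 and 0.365 by limma). Without αKG replicate 3 these 2 passed as higher and the 6 as lower, beside 37.2% of all genes. Only 3 of 7 macrophage markers were listed, summing to 13 to 22 in DMSO and 21, 31 and 9 in αKG, and *Ptprc*, *Adgre1*, *C1qa* and *C1qb* were not among the genes in the table. The CM marker sum was likewise highest in αKG replicates 1 and 2, but most of it was *Ttn*. That gene had 51569, 54216 and 53157 in DMSO and 80306, 84136 and 55569 in αKG. None of the 8 CM markers passed (limma). At an unadjusted p under 0.05, 3 were higher and 1, *Pln*, was lower, beside 28.1% of all genes. Without αKG replicate 3, 4 passed as higher and 1 as lower, beside 37.2% of all genes. In RNA of whole cultures more cells of a type and more RNA per cell cannot be told apart, and the part of cell composition in the levels of *Ctgf*, *Cyr61* and the other targets was not tested.

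For *Yap1*, *Wwtr1* and *Tead1*, the effectors themselves, no difference was detected, and their 95% intervals kept the log2 difference between -0.20 and 0.13. *Yap1* (ENSMUSG00000053110, chr9:7931999-8004596, minus strand), the coactivator on which the pathway converges, had 670, 679 and 672 normalized read counts in DMSO and 675, 663 and 653 in αKG. The groups overlapped, and their coefficients of variation, 0.70% in DMSO and 1.66% in αKG, were below the counting error of 3.85%. The log2 fold change was -0.02 ± 0.06 (SE), with a 95% interval of -0.16 to 0.12 (adjusted p = 0.851 by limma). An annotated antisense gene, *Gm20416*, shares 116 of its exon bases.

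*Wwtr1* (ENSMUSG00000027803, chr3:57455649-57575910, minus strand), which encodes TAZ, the paralogue of YAP, had 802, 843 and 807 in DMSO and 795, 762 and 803 in αKG. Again the groups overlapped, and the 95% interval of the log2 difference was -0.20 to 0.09 (adjusted p = 0.585 by limma). *Tead1* (ENSMUSG00000055320, chr7:112679318-112906807, plus strand), which encodes the main TEAD factor of the heart, had 1898, 2117 and 1970 in DMSO and 1990, 2018 and 1977 in αKG. Its mean was 1995 in both groups, with an SD of 112 in DMSO, and the 95% interval of the log2 difference was -0.13 to 0.13 (adjusted p = 0.998 by limma).

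None of the 7 effectors and DNA-binding partners in the table passed the test (limma, 0 at an unadjusted p under 0.05), where 3.78% and 28.1% of all genes did. Without αKG replicate 3, 1 of the 7 passed as higher, beside 37.2% of all genes. Of the other TEAD genes, *Tead2* had a log2 fold change of -0.11 ± 0.11, *Tead3* of 0.35 ± 0.18 and *Tead4* of 0.36 ± 0.24 (SE, adjusted p = 0.531, 0.222 and 0.347 by limma). *Tead4* had between 30 and 53 normalized read counts in all libraries, and *Tead3* between 105 and 191. The log2 ratio of *Wwtr1* to *Yap1* within a library, which does not depend on scaling, averaged 0.28 ± 0.03 (SD, n = 3) in DMSO and 0.25 ± 0.05 (SD, n = 3) in αKG (two-sided exact permutation test, p = 0.4, where 3 against 3 libraries cannot go below 0.1).

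Of the 7 genes of the core kinase cassette none passed (limma, 0 at an unadjusted p under 0.05), where 3.78% and 28.1% of all genes did. *Lats1* (ENSMUSG00000040021, chr10:7681214-7716460, plus strand), a kinase that phosphorylates YAP and TAZ, had 344, 373 and 373 in DMSO and 431, 406 and 337 in αKG. αKG replicates 1 and 2 were above and αKG replicate 3 below all controls, and the log2 fold change was 0.10 ± 0.10 (SE, adjusted p = 0.554 by limma). Without αKG replicate 3 it was 0.20 (adjusted p = 0.0445 by limma).

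*Lats2* (ENSMUSG00000021959, chr14:57689662-57758388, minus strand), the second LATS kinase and also a YAP target in the signature, had 454, 495 and 483 in DMSO and 424, 427 and 438 in αKG. It was the only one of the 10 genes whose αKG values all lay below its DMSO values, an order found in 14.6% of all genes, while the opposite order, shown by *Ctgf*, was found in 13.7%. The log2 fold change was -0.15 ± 0.07 (SE, 95% interval -0.32 to 0.02) and did not pass (adjusted p = 0.219 by limma). In *Lats2* αKG replicate 3 lay with its group, and without it the log2 fold change was -0.17 (adjusted p = 0.0581 by limma). An annotated gene on the same strand, *Gm49361*, shares 2955 exon bases with *Lats2*, and reads assigned to more than 1 gene were left out by the authors.

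The balance of the LATS genes differed between αKG libraries. The log2 ratio of *Lats2* to *Lats1* was 0.40, 0.41 and 0.37 in DMSO and -0.02, 0.07 and 0.38 in αKG. αKG replicates 1 and 2 had nearly equal values of the genes, and αKG replicate 3 had the ratio of the controls. The difference of the means was -0.25 (two-sided exact permutation test, p = 0.2).

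*Sav1* (ENSMUSG00000021067, chr12:69965012-69987002, minus strand), the scaffold that joins the MST and LATS kinases, had 433, 434 and 472 in DMSO and 463, 421 and 427 in αKG. The groups overlapped (log2 fold change -0.03 ± 0.08 SE, adjusted p = 0.831 by limma). Its exons share 1336 bases with *Atl1* on the opposite strand, and the use of strand in the counting was not given in the sources used here. Of the rest of the cassette, *Stk3* and *Stk4*, the MST kinases, had log2 fold changes of -0.01 ± 0.09 and -0.18 ± 0.09, and *Mob1a* and *Mob1b*, which encode coactivators of LATS, of 0.02 ± 0.08 and -0.01 ± 0.08. The lowest limma adjusted p of these genes was 0.216, for *Stk4*, which passed as lower without αKG replicate 3 (log2 fold change -0.26, adjusted p = 0.0111 by limma).

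*Ajuba* (ENSMUSG00000022178, chr14:54567472-54577558, minus strand), a LIM protein that holds LATS inactive at cell junctions, had the lowest level of the 10 genes per exon length, with normalized read counts of 116, 108 and 129 in DMSO and 128, 130 and 110 in αKG. The groups overlapped, at a counting error of 9.10% (log2 fold change 0.06 ± 0.13 SE, adjusted p = 0.793 by limma). Its relative *Limd1* had 624, 622 and 648 in DMSO and 431, 435 and 586 in αKG, lower in every αKG library, with a log2 fold change of -0.40 ± 0.11 (adjusted p = 0.0771 by limma), and the third member, *Wtip*, of -0.16 ± 0.17 (adjusted p = 0.563 by limma). Without αKG replicate 3, *Limd1* passed at -0.54 (adjusted p = 0.000816 by limma).

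Of the YAP inhibitors, *Amot*, the founding angiomotin, had 133, 142 and 131 in DMSO and 248, 235 and 156 in αKG (log2 difference 0.62 ± 0.17, adjusted p = 0.0665 by limma). Its level was higher in all 3 αKG libraries, but *Amotl1* had a log2 fold change of -0.01 ± 0.07 (adjusted p = 0.934 by limma). *Vgll4*, which competes with YAP for TEAD, had 171, 155 and 158 in DMSO and 140, 148 and 117 in αKG (-0.26 ± 0.13, adjusted p = 0.209 by limma). Among upstream regulators, *Nf2*, which recruits LATS to the membrane, had a log2 fold change of -0.12 ± 0.08 (adjusted p = 0.323 by limma), and without αKG replicate 3 it passed as lower, at -0.20 (adjusted p = 0.0119 by limma). The atypical cadherins *Fat4* and *Dchs1*, a receptor and its ligand, were named after their values were seen. *Fat4* had 248, 254 and 254 in DMSO and 764, 715 and 269 in αKG, a log2 difference of 1.06 ± 0.32 (adjusted p = 0.0839 by limma), and *Dchs1* 38, 40 and 30 in DMSO and 85, 74 and 47 in αKG (0.88 ± 0.25, adjusted p = 0.0729 by limma). Without αKG replicate 3, *Amot* passed at 0.83, *Fat4* at 1.55 and *Dchs1* at 1.13 (adjusted p of at most 0.00463 by limma).

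**Figure D3:**
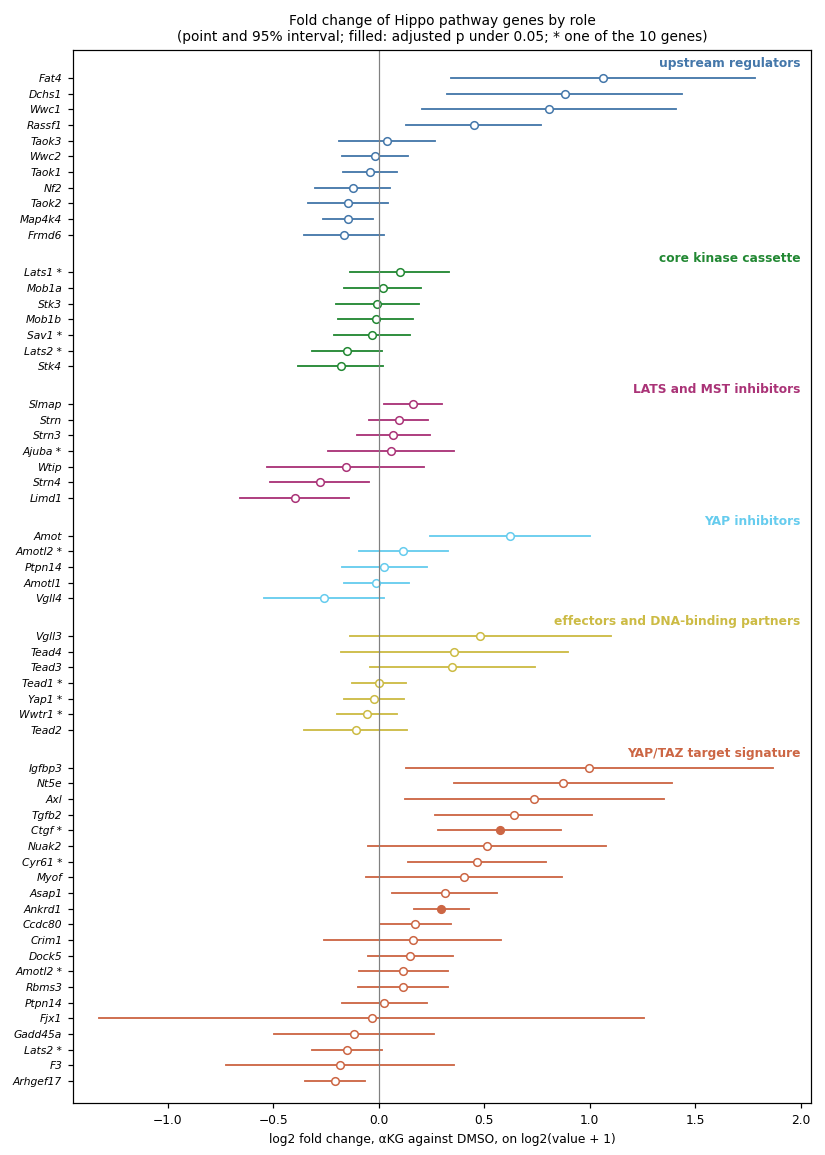
Log2 fold change of αKG against DMSO with its 95% interval (x axis) for genes of the pathway list in the table, all but 1, grouped and coloured by role, with *Amotl2*, *Lats2* and *Ptpn14* shown under each of their roles. Filled points passed an adjusted p of 0.05, which only *Ctgf* and *Ankrd1* did, and all intervals in the core kinase and effector groups span 0.

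The pathway list held 58 genes with the 10 included, and 56 were in the table, all but *Foxf2* and *Vgll2*. The test was passed by 2 of the 56 (limma), both targets, and by 0 of the 38 with another role, among them *Amotl2*, *Lats2* and *Ptpn14*, which the target list also holds, where 3.78% of all genes passed. At an unadjusted p under 0.05, 20 of the 56 passed, 15 higher and 5 lower, and 10 of the 38, beside 28.1% of all genes. Without αKG replicate 3, 21 of the 56 passed as higher and 8 as lower, and of the 38 with another role 8 as higher and 7 as lower, beside 37.2% of all genes. The median log2 fold change was 0.03 over the 10 genes, 0.05 over the 56 and -0.01 over the 38.

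Divided by exon length, the targets *Ctgf* and *Cyr61* were the most abundant of the 10 genes. The length is that of all annotated exons of a gene and not of the transcripts expressed, so genes can be compared only roughly. In DMSO the mean level in normalized read counts per kb of exon was 242 for *Ctgf*, 215 for *Cyr61*, 171 for *Wwtr1*, 162 for *Amotl2*, 147 for *Tead1*, 84.8 for *Sav1*, 72.8 for *Yap1*, 68.5 for *Lats2*, 49.8 for *Lats1* and 32.3 for *Ajuba*. The ranges of neighbours in this order overlapped for *Wwtr1* with *Amotl2* and for *Amotl2* with *Tead1*, and for no other pair of neighbours. The *Lats2* level was divided by all 6971 exon bases, of which 2955 are shared with *Gm49361*. Reads shared by genes were left out, so the level and rank of *Lats2* may be too low. In αKG *Amotl2* (176 ± 22.4, SD, n = 3) came before *Wwtr1* (165 ± 4.55, SD, n = 3), with overlapping ranges, and *Ctgf* (366 ± 73.3) overlapped with *Cyr61* (303 ± 67.0).

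**Figure D4:**
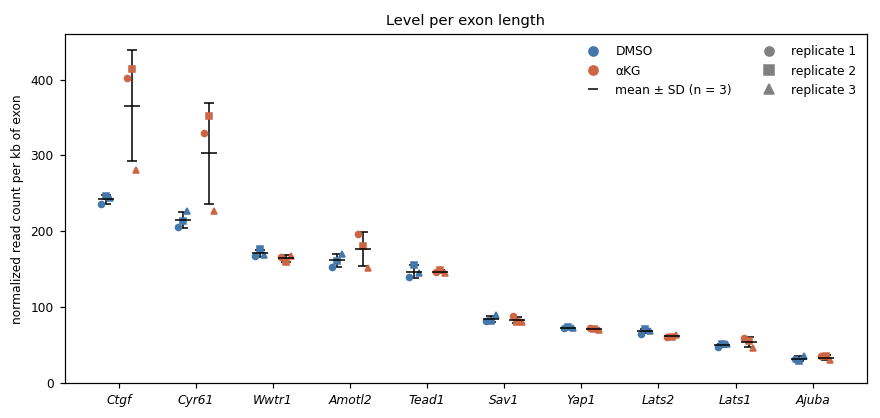
Normalized read count per kb of exon (y axis, from 0) of the 10 genes in each DMSO (blue) and αKG (orange) library, ordered by the DMSO mean, with the mean ± SD (n = 3) as bars. *Ctgf* and *Cyr61* are the highest in both groups, and *Ajuba* is the lowest at 32.3 in DMSO.

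Genes with a pattern over the 6 libraries like that of *Ctgf* were sought among the 8294 genes whose mean reached 100. Among the 5 highest Pearson correlations of log2 values, over 6 libraries that fall in 2 treatment groups, were 0.9987 for *Xist*, the RNA that silences an X chromosome, 0.9977 for *Atr* and for *Braf*, kinases of the DNA damage response and of the MAPK cascade, and 0.9976 for *Gm45457*. *Xist* had 1965, 2103 and 2051 in DMSO and 3138, 3254 and 2292 in αKG, thus the same order of libraries. Of the 10 genes, *Cyr61* was nearest to *Ctgf*, at 0.983. The genes most like *Yap1* were *Srpr* (0.9732), *Itga6* (0.9729), *Nfkb2* (0.9663), *Zswim6* (0.9635) and *Itga3* (0.9634), for a gene whose own values spanned only 653 to 679.

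The call of *Ctgf* was near the threshold. Over 15 alternative settings its log2 fold change lay between 0.48 and 0.75, always positive, and its limma adjusted p between 0.000309 and 0.278, passing in 5. It passed with equal totals, quantile normalization, a pseudocount of 5, a filter on a mean of at least 10 and without αKG replicate 3. Besides the fits without other libraries, it did not pass with a pseudocount of 0.1, no variance trend, limma-voom, the replicate block (adjusted p = 0.0953 by limma) or DMSO replicates 2 and 3 averaged. Its exons share 665 bases with *Gm15270* on the opposite strand, which had 32 to 51 normalized read counts. *Ankrd1* passed in 7 of the 15 settings, with log2 fold changes of 0.24 to 0.34.

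**Figure D5:**
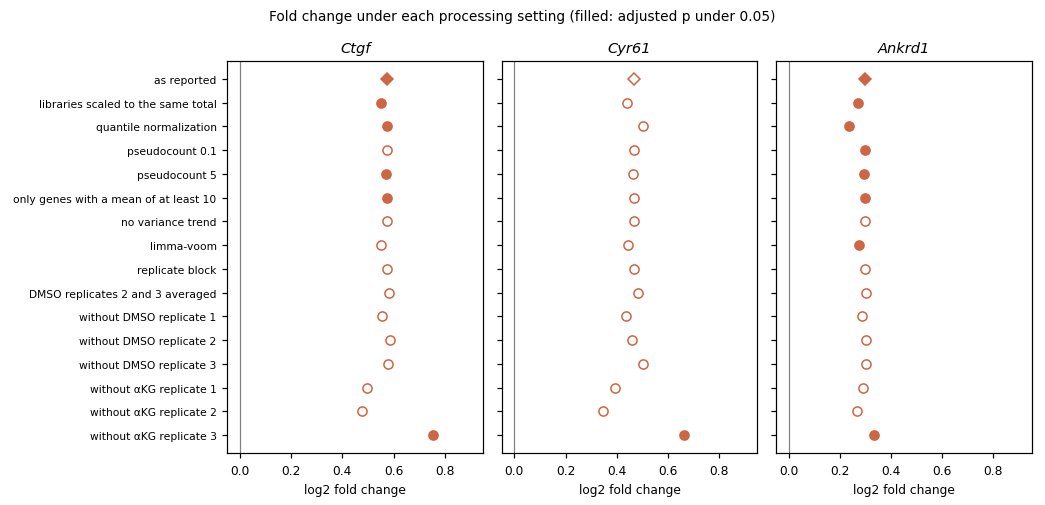
Log2 fold change (x axis) of *Ctgf*, *Cyr61* and *Ankrd1* as reported (diamonds) and under 15 alternative settings (circles, y axis), filled where the adjusted p was under 0.05. All values are positive, *Ctgf* lies between 0.48 and 0.75, and leaving out αKG replicate 3 gives the highest value in each gene.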

How the data were processed

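RNA-seq was carried out on total RNA with a strand-marking kit, which the study's methods describe for adult CMs. Per the study's methods and the submitters' processing notes, the authors trimmed reads (Trimmomatic 0.39), aligned them to mm10 (GRCm38.p5) with STAR 2.7.10a, counted exonic reads per gene with featureCounts 2.0.3, discarding reads shared by genes or mapped to more than 1 region, and applied DESeq2 1.30.1. The deposited values are a score here: normalized read counts in whole numbers. They look like counts scaled by library size factors and then rounded, which was inferred from the values, so no count test was run. The number of reads was inferred from gaps among the low values, and 20 of 20 simulated depths were recovered within 0.1%.

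All 6 libraries and 20066 genes entered 1 model of treatment (limma 3.58.1 with a variance trend, R 4.3.3; Python 3.11.15) on log2(value + 1), which understates changes of low genes, with no filter. Adjusted p-values are Benjamini-Hochberg values over all genes. In simulated reads 184 of 200 changed genes were called, with 0 false calls. The dispersion, 1e-04, was the lowest value the simulation allowed and gives a spread smaller than that between the αKG libraries. False calls at the spread of the real libraries were thus not tested. Gene positions are those of the table, 99.0% identical in GENCODE M21, which gave exon lengths. The 10 genes, the pathway, target and marker lists were chosen with earlier results of these data known. Named genes were the 10, called pathway genes, 16 pathway genes set by name, and the 5 genes most like *Ctgf* and *Yap1*; others are marked where they appear. The labels name no batch. PCR reads are not independent molecules, so counting error is a lower limit. A pathway gene and a gene like *Ctgf* are counted but not reported here.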

Additional observations from a re-analysis of the deposited data

How the results depend on the processing

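Of 660 log2 fold changes of 44 named genes under an alternative, 567 kept their direction and side of the threshold, 49 lost the call, 23 gained it and 21 changed sign. The sign changes were all near 0. With libraries scaled to the same total, *Tead1* was at -0.023 and *Mob1a* at -0.007, as with limma-voom. With quantile normalization, *Tead1* was at -0.077, *Sav1* at 0.017, *Stk3* at 0.036 and *Mob1b* at 0.006, the last also at 0.006 with DMSO replicates 2 and 3 averaged. With 1 library left out, the log2 fold change ranged from -0.034 to 0.045 for *Tead1*, -0.073 to 0.010 for *Sav1*, 0.000 to 0.135 for *Ajuba*, -0.050 to 0.063 for *Stk3*, -0.015 to 0.046 for *Mob1a*, -0.079 to 0.036 for *Mob1b* and -0.059 to 0.051 for *Amotl1*. The cause was not tested.

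The number of genes called, 759 of 20066, was 346 with a pseudocount of 0.1, 27 without a variance trend, 351 with limma-voom, 19 with DMSO replicates 2 and 3 averaged and 5648 at an unadjusted p under 0.05. Leaving out 1 library gave 0 to 7466 genes, the latter without αKG replicate 3 and 0 without αKG replicate 1 or 2, where 3324 and 3244 passed at an unadjusted p under 0.05. Of the 10 genes, 0 were called with a pseudocount of 0.1, no variance trend, limma-voom or averaged DMSO replicates, 2 at the unadjusted threshold, and 0 to 4 with 1 library left out. Of the 56 pathway genes, 1 was called with a pseudocount of 0.1 or limma-voom, 0 without a trend or with averaged DMSO replicates, 20 at the unadjusted threshold, and 0 to 29 with 1 library left out. Of the 21 target genes, the same settings gave 1, 1, 0, 0 and 10, and leaving out 1 library gave 0 to 15. Each count of 0 is by limma, and at an unadjusted p under 0.05 between 1 and 3 of the 10 genes, 9 and 19 of the 56, and 3 and 9 of the 21 passed in those fits.

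The deviations of same-numbered libraries from their group means correlated at -0.07, 0.14 and 0.00, against -0.169 to 0.145 for the other pairs. With 3 libraries per group, these values cannot tell whether same-numbered libraries share an isolation, and the labels do not say. With the replicate number as a block, 46 genes were called, 0 of the 10, 0 of the 56 and 0 of the 21, and *Ctgf* had a limma adjusted p of 0.0953. Scaling moved the median log2 fold change of all genes from 0.04 to 0.01 (equal totals) or -0.06 (quantile normalization), and equal totals gave 915 calls of which 66.3% were higher, against 74.8%. Counting error, 2.23% to 9.10% of the 10 genes' values, exceeded the coefficient of variation between αKG libraries for *Yap1*, *Wwtr1*, *Tead1*, *Lats2* and *Ajuba*.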
